A study of Mus musculus with 13 samples.

Results

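The Dlx and engrailed genes encode homeodomain transcription factors that pattern the forebrain, the face, the limbs and the midbrain. The 8 genes described here are Dlx1, Dlx2, Dlx3, Dlx4, Dlx5, Dlx6, En1 and En2, and they occupy 5 loci. H3K27me3 peaks were counted at a locus when they overlapped a window on mouse build mm9 that had been set for it, from 71.33 to 71.42 Mb on chromosome 2 for Dlx1 and Dlx2, 94.94 to 95.04 Mb on chromosome 11 for Dlx3 and Dlx4, and 6.78 to 6.86 Mb on chromosome 6 for Dlx5 and Dlx6. The windows for the single genes ran from 122.45 to 122.55 Mb on chromosome 1 for En1 and from 28.45 to 28.53 Mb on chromosome 5 for En2. They held 12 of the 2245 deposited peaks, 4 of 1053 in one list and 8 of 1192 in the other. The loci were chosen by position with the peak calls of both lists already known, so the presence and width of their peaks are given as a description, without a test.

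The cells were mouse embryonic fibroblasts transduced with lentivirus for stable expression of a histone H3 in which lysine 27 is replaced by methionine (K27M). One group expressed the mutant of H3.1, the form incorporated mainly at replication, and the other that of H3.3, which is incorporated throughout the cell cycle. Both groups also carry their endogenous histone genes, and each had 2 H3K27me3 samples, made by immunoprecipitation of crosslinked chromatin cut with micrococcal nuclease. A single peak list per group was analysed, named by the labels of both of its samples, so no spread between replicates could be computed. The lists give no expression values, and the labelled cell type could not be checked against marker genes. Empty-vector and K27R cells were not analysed here, so each list is set only against the other.

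Polycomb repressive complex 2 (PRC2) places H3K27me3 and keeps developmental regulators silent in cells that do not use them, and in vertebrates its peaks often centre on regions rich in the dinucleotide CG. K27M histones inhibit PRC2. Engrailed is a classic target of Polycomb silencing in flies. In mammals the Dlx genes lie as neighbouring pairs whose members are transcribed towards each other and are often used in the same tissues. Dlx1, Dlx2, Dlx5 and Dlx6 act in forebrain interneurons and the branchial arches, Dlx3 and Dlx4 in skin, hair and placenta, En1 in the midbrain, the ventral limb and part of the skin, and En2 in the cerebellum.

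The 5 loci fell into 3 kinds. At En1 and at Dlx5 and Dlx6, H3K27me3 was called in H3.3K27M cells only. At En2 and at Dlx3 and Dlx4 it was called in both mutants, with longer H3.3K27M peaks throughout. The H3.3K27M peak was also the wider one in 77.7% of all regions with 1 peak of each list. At Dlx1 and Dlx2 neither list had a peak. No locus had a peak in H3.1K27M cells alone. The H3.1K27M peaks of the 5 windows covered 62.8 kb and the H3.3K27M peaks 161.8 kb, a ratio of 2.58, where the ratio over all peaks was 1.36 (8.75 and 11.9 Mb). An H3.1K27M peak at En2 lay just outside its window while its H3.3K27M partner was counted, and with it the lengths were 71.2 and 161.8 kb, a ratio of 2.27. At the shared loci, En2 and Dlx3 with Dlx4, the ratio was 1.56, or 1.37 with that peak. Every base of the 62.8 kb called with the H3.1 mutant was also called with the H3.3 mutant. En1 together with Dlx5 and Dlx6 contributed 64 kb, or 39.6%, of the H3.3K27M length. The map of the loci shows the 3 kinds side by side.

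**Figure D1:**
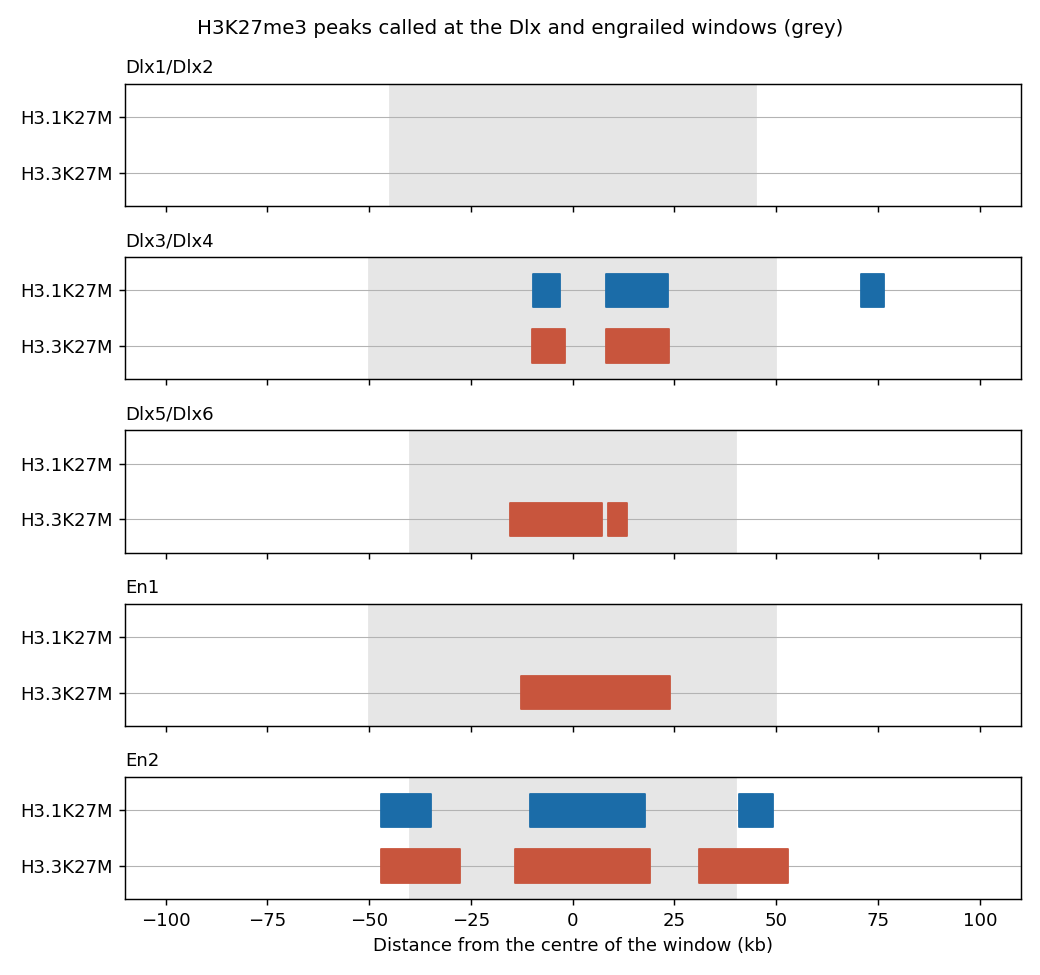
Peaks of H3K27me3 in H3.1K27M cells (blue, upper row) and H3.3K27M cells (red, lower row) at the 5 windows (grey), by distance in kb from the centre of each window. The blue row is empty at Dlx5/Dlx6 and En1, both rows are empty at Dlx1/Dlx2, and at En2 the outermost peaks cross or lie beyond the edge of the window.

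Of the 8 H3.3K27M peaks, 3 had no overlapping H3.1K27M peak (37.5%, 95% exact interval 8.52 to 75.5%), and over the whole H3.3K27M list 354 of 1192 had none, 29.7%. Of the 4 H3.1K27M peaks, 0 lacked a partner (exact interval 0 to 60.2%), where the whole list had 198 of 1053 without one, 18.8%. Each interval includes the share of the whole list, and covers counting error only. It treats the peaks as independent, whereas those of a locus lie close together and the loci were chosen with both lists known. The intervals therefore do not test whether these loci differ from the whole list. An absent call is not evidence of absent H3K27me3, because the depth and the calling threshold of each list are unknown. A deeper library or a looser threshold can give more and wider peaks, and the effect of either was not tested here.

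En1 had the longest single peak of the group in either list. It ran on chromosome 1 from 122487201 to 122523799 in H3.3K27M cells, 36.6 kb, and took up 36.6% of its window. This was rank 28 by width among all 1192 H3.3K27M peaks, so 2.35% of them were at least as wide, and rank 3 of the 354 without a partner. The H3.1K27M list had no peak for 5.56 Mb around it. Its nearest peaks ended 244 kb before the En1 domain and began 5.28 Mb after it. The one before, from 122232801 to 122243199, was also called in H3.3K27M cells with nearly the same edges, from 122233001 to 122243199, or 10.4 kb against 10.2 kb. This peak, called alike in both lists, lay 244 kb from the En1 domain. Why En1 had no H3.1K27M call was not tested. In the RefSeq gene table the protein-coding neighbours of En1 are Marco and Insig2.

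Dlx5 and Dlx6 had a pair of H3.3K27M peaks and no H3.1K27M peak. The first ran on chromosome 6 from 6804601 to 6827199, 22.6 kb (rank 100 of 1192), and the second from 6828601 to 6833399, 4.8 kb (rank 866). They were separated by 1.4 kb, which is 7 steps of the 200 bp grid on which all peak edges lie, and together they covered 27.4 kb, 34.2% of the window. Of the 354 H3.3K27M peaks without a partner, 4 lay within 5 kb of another such peak, and these were 2 of them. The nearest H3.1K27M peaks ended 3.09 Mb before the first peak and began 2.06 Mb after the second. Over all H3.3K27M peaks without a partner the median distance to an H3.1K27M peak was 531.3 kb, and 22.3% were at least as far from one as the wider Dlx5 and Dlx6 peak, against 67.2% for the En1 peak. The H3.3K27M list itself had no other peak for 3060 kb before the window and 643.8 kb after it. In the gene table Dlx6 and Dlx5 follow each other and are flanked by Sem1 and Sdhaf3. The noncoding Dlx6os2 is listed between Dlx6 and Dlx5 by start position, and whether it overlaps either gene was not examined.

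Peaks as wide as those of En1 and of Dlx5 and Dlx6 seldom lacked a partner. In the H3.3K27M list 101 peaks were at least 22.6 kb wide, and 4 of these had no H3.1K27M peak (3.96%, exact interval 1.09 to 9.83%). This limit was taken from a peak of these loci, chosen with its calls known, so the share is a description and tests nothing about them. The 4 were the En1 peak, the wider Dlx5 and Dlx6 peak, which set this limit, and 2 longer ones. Of these the first measured 38.6 kb and lay between 96106601 and 96145199 of chromosome 11, and the second measured 38 kb and lay between 128896001 and 128933999 of chromosome 3. The share without a partner fell with width over the whole list, from 52.6% of the 327 peaks under 5 kb to 28.9% of 501 from 5 to 10 kb, 13.8% of 232 from 10 to 20 kb and 3.79% of 132 at 20 kb or more. The narrow second peak at Dlx5 and Dlx6 belongs to the class where a missing partner was most frequent. The next widest H3.3K27M peak without a partner, on chromosome 13 from 99120001 to 99139999, measured 20 kb. No running peak number was unused in either list between the peaks that flank any of the 5 windows.

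**Figure D2:**
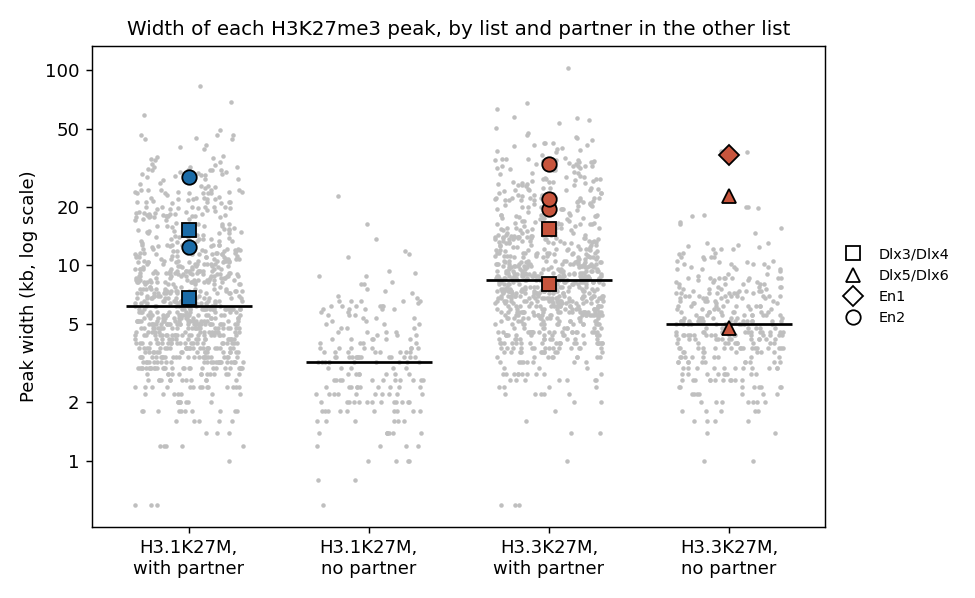
Width in kb (log axis) of each H3K27me3 peak, in columns by list and by whether a peak of the other list overlaps it; grey points are all other peaks, black lines the medians of each column, and large symbols the peaks of the 5 windows, blue for H3.1K27M and red for H3.3K27M. The En1 peak at 36.6 kb and the wider Dlx5/Dlx6 peak at 22.6 kb stand at the top of the last column, while the peak of 4.8 kb lies close to its median.

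En2 had the greatest peak length of the 5 loci in both mutants. The H3.3K27M list had 3 peaks there. They ran on chromosome 5 from 28442801 to 28462199 (19.4 kb), from 28475801 to 28508999 (33.2 kb, rank 42 of 1192) and from 28521001 to 28542799 (21.8 kb). The H3.1K27M list matched each with 1 peak, from 28442801 to 28455199 (12.4 kb), from 28479401 to 28507799 (28.4 kb, rank 39 of 1053) and from 28530801 to 28539199 (8.4 kb). The last of these began 0.8 kb beyond the window and is therefore not among the 4 H3.1K27M peaks counted above. Peaks of the H3.1K27M list covered 42% of the window and those of the H3.3K27M list 68%.

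Domains are named here after the window, because no gene position was placed on the peaks. Of the last H3.3K27M peak, 9 kb lay inside the window. With the H3.1K27M peak just beyond the window, the 3 domains spanned 96.4 kb in that list and 100 kb in the other. The outer limits of the group were therefore close. Between them the covered length was 49.2 kb against 74.4 kb, a ratio of 1.51. Gaps between the domains measured 24.2 and 23 kb with H3.1K27M, and 13.6 and 12 kb with H3.3K27M. Of the additional H3.3K27M length, 21.6 kb lay towards these gaps and 3.6 kb at the outer edge. The first domain had the same left edge in both lists and reached 7 kb further right. The middle domain reached 3.6 kb further left and 1.2 kb further right. The last domain reached 9.8 kb further left and 3.6 kb further right. The next H3.3K27M peak, from 28781201 to 28796799 (15.6 kb), also had an H3.1K27M partner. On the other side the nearest other H3.3K27M peak ended 3842.8 kb before the window. The gene table places En2 between Insig1 and Cnpy1.

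Dlx3 and Dlx4 had 2 domains with almost the same edges in both mutants. The first ran on chromosome 11 from 94980201 to 94986999 in H3.1K27M cells (6.8 kb) and from 94980001 to 94987999 in H3.3K27M cells (8 kb). The second ran from 94998201 to 95013399 (15.2 kb) and from 94998201 to 95013599 (15.4 kb), the same start and an end displaced by 1 grid step. In all, 22 kb was called with H3.1K27M against 23.4 kb with H3.3K27M, a ratio of 1.06, and 94% of the length called in either list was common to both. The same share was 56.3% over all peaks. At En2 it was 54.8% for the peaks that overlap the window and 66.1% with the H3.1K27M peak 0.8 kb outside it. The gene table lists the pair between Itga3, which encodes an integrin subunit, and Tac4, which encodes a tachykinin.

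A further H3.1K27M peak lay 20.8 kb beyond the Dlx3 and Dlx4 window, from 95060801 to 95066399 (5.6 kb), and had no H3.3K27M partner. It is outside the counts above. It was the one H3.1K27M peak without a partner within 50 kb of any of the windows, and lay 47.2 kb from the nearest H3.3K27M peak.

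**Figure D3:**
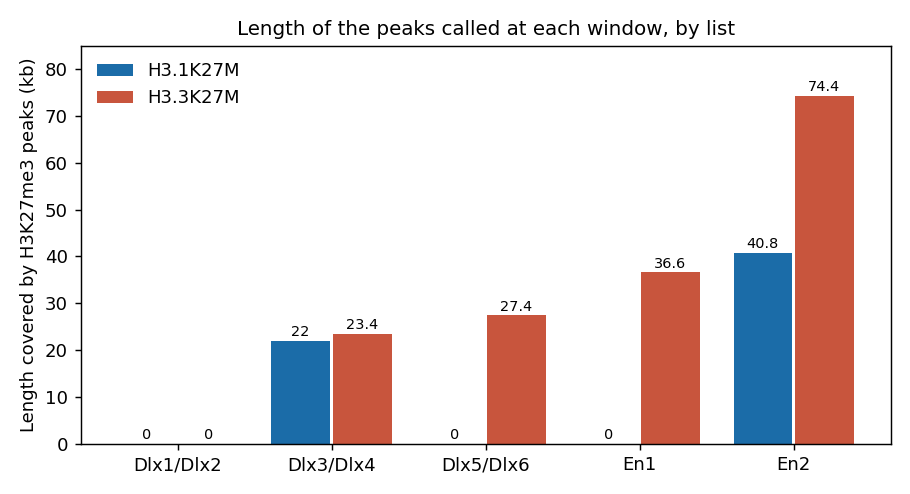
Length in kb covered by the H3K27me3 peaks that overlap each window, for H3.1K27M (blue) and H3.3K27M (red); there is 1 list per group and no error bar. The lists are nearly equal at Dlx3/Dlx4 (22 and 23.4 kb), differ at En2 (40.8 and 74.4 kb, without the H3.1K27M peak that starts 0.8 kb outside the window), and only H3.3K27M has a bar at Dlx5/Dlx6 (27.4 kb) and En1 (36.6 kb).

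In each of the 5 regions at En2 and at Dlx3 and Dlx4 with 1 peak per list, the H3.3K27M peak was the wider one, as it was in 627 of all 807 such regions, 77.7%. On the log2 scale the H3.3K27M width over the H3.1K27M width was 0.65, 0.23 and 1.38 along the En2 group and 0.23 and 0.02 at Dlx3 and Dlx4. Their median was 0.23, below the 0.33 of all 807 regions. The last En2 region stood highest, with an H3.3K27M peak 2.6 times as wide, and 5.45% of all regions had a ratio at least as large. At the other end, 77.2% of all regions had a ratio at least as large as the wider Dlx3 and Dlx4 domain. The 5 regions therefore ranged over much of the distribution. In 2 of the 5 both lists gave the same left edge, which occurred in 71 of the 807 (8.8%). The right edges differed in all 5, by 0.2 to 7 kb. How often right edges were the same over all regions was not counted.

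**Figure D4:**
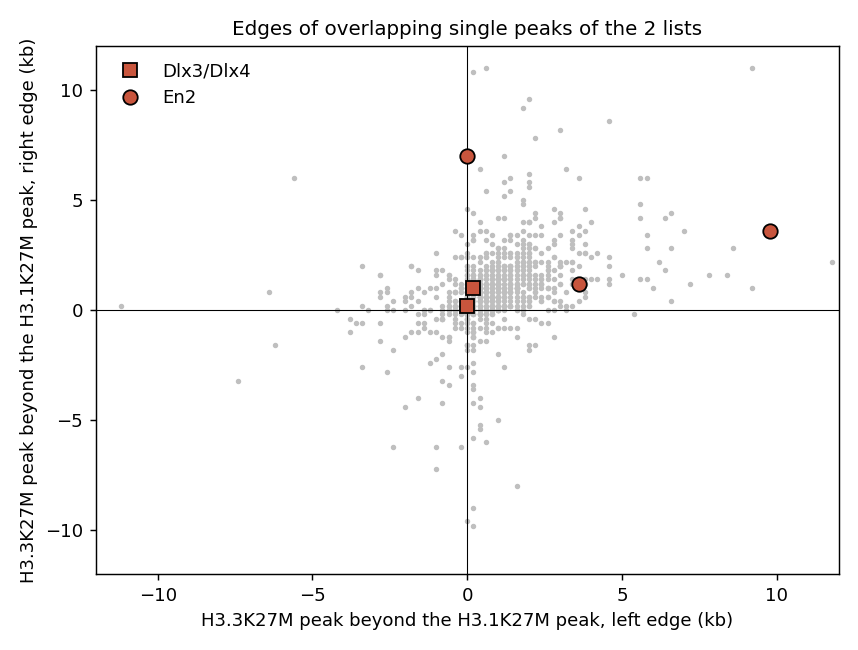
How far in kb the H3.3K27M peak reaches beyond the H3.1K27M peak at its left edge (horizontal axis) and right edge (vertical axis), for regions with 1 peak of each list; grey points are 789 other regions, with 13 outside the axes, and negative values mean that the H3.1K27M peak reaches further. Both Dlx3/Dlx4 regions lie at or near the origin (0.2 and 1 kb, 0 and 0.2 kb), whereas the 3 En2 regions lie at 0 and 7 kb, 3.6 and 1.2 kb, and 9.8 and 3.6 kb.

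Most peaks of these loci were broad for their lists. Counting any overlap of 1 bp favours wide peaks, and the loci were chosen with the calls known, so this is a description only. All 4 H3.1K27M peaks exceeded the median width of 5.6 kb of that list, with a median of 13.8 kb. Of the 8 H3.3K27M peaks 7 exceeded the median of 7.2 kb of theirs, with a median of 20.6 kb. The exception was the peak of 4.8 kb at Dlx5 and Dlx6. The first Dlx3 and Dlx4 domain was nearer the middle, at rank 406 of 1053 with H3.1K27M and rank 499 of 1192 with H3.3K27M.

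Dlx1 and Dlx2 differed from the other pairs in having no peak in either list. The nearest peaks ended 919.2 kb (H3.1K27M) and 918.6 kb (H3.3K27M) before the window and began 1686 and 1685.2 kb after it. Both of these flanking peaks were shared between the lists. They bound a stretch without a call of 2.7 Mb in the H3.1K27M list and 2.69 Mb in the H3.3K27M list. Stretches at least that long made up 23.1% of the 1033 gaps between neighbouring H3.1K27M peaks and 22.1% of the 1172 in the other list, where the median gaps were 668 and 693.3 kb. The empty stretches of H3.1K27M cells at En1 (5.56 Mb) and at Dlx5 and Dlx6 (5.18 Mb) were longer, with 11.9% and 12.7% of gaps at least as long. A window without a peak falls more readily in a long gap than in a short one. These shares of gaps therefore do not measure how unusual the stretches are. The protein-coding neighbours of Dlx1 and Dlx2 are Metap1d and Itga6. In order of start position the noncoding Dlx1as is listed between Dlx1 and Dlx2, and whether it overlaps either gene was not examined.

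The sequence before the transcription start was compared for the members found in the RefSeq promoter table, which describes build GRCm38.p6. En1, Dlx1 and Dlx2 were matched, 3 of the 8, and Dlx3, Dlx4, Dlx5, Dlx6 and En2 were not. These 3 are shown because they were the only members that the table held. En1 was called in H3.3K27M cells, and Dlx1 and Dlx2 were called in neither mutant. Each sequence is the 250 bases before the start, read in the direction of the gene, with every CG dinucleotide in capitals. The En1 sequence lies at chr1:120602237-120602486 on the plus strand, that of Dlx1 at chr2:71529195-71529444 on the plus strand, and that of Dlx2 at chr2:71546755-71547004 on the minus strand. These positions belong to another build than the peaks and were not placed on them.
En1: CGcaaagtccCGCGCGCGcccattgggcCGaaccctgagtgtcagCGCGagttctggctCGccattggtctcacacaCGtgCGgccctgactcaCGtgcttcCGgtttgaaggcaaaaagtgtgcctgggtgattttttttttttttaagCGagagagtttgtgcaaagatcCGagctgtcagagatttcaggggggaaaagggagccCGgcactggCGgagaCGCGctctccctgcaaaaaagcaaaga
Dlx1: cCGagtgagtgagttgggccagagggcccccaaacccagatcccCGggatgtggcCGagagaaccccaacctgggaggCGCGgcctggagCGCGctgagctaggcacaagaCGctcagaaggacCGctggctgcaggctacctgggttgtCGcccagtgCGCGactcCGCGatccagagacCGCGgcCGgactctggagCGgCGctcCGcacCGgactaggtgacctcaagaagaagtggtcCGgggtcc
Dlx2: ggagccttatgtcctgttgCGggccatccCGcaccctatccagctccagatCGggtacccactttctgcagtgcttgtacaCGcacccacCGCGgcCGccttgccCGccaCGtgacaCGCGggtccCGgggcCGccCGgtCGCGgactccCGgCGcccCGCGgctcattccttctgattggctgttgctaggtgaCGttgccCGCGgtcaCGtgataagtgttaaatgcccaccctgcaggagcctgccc

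All 3 sequences were rich in CG. The En1 sequence held 19, that of Dlx1 22 and that of Dlx2 24, and the median over the 32851 promoters of the table was 6, with quartiles of 2 and 16. At least as many as En1 were found in 19.7% of all promoters, as Dlx1 in 14.8% and as Dlx2 in 12%. The share of G and C was 56% for En1, 68% for Dlx1 and 66.4% for Dlx2, against a median of 52.4%. The ratio of observed CG to the number that the C and G content predicts was 0.98 for En1, 0.76 for Dlx1 and 0.89 for Dlx2, against a median of 0.37. Dlx1 and Dlx2, with no peak in either list, had more CG than En1, which had a peak of 36.6 kb in 1 list. Their ratio of observed to predicted CG was lower than that of En1. Whether CG content is related to the calls was not tested. The homeodomain core TAATTA, which reads the same on both strands, was in none of the 3 sequences and in 4.84% of all promoters. The related CAATTA, searched on both strands, was also in none of the 3 and in 7.17% of all. These matches describe the letters of these windows only.

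**Figure D5:**
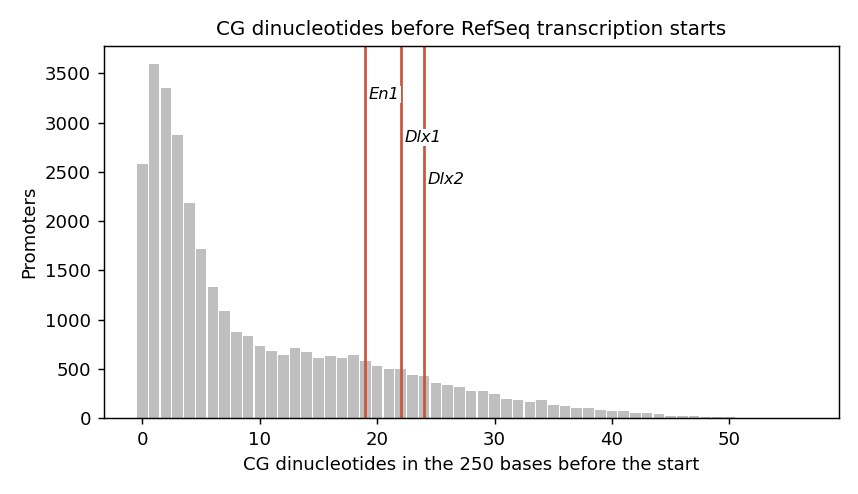
Number of CG dinucleotides in the 250 bases before the start (horizontal axis) for all 32851 RefSeq promoters (grey bars, number of promoters), with red lines for En1 (19), Dlx1 (22) and Dlx2 (24). All 3 lines stand to the right of the upper quartile of 16.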

How the data were processed

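H3K27me3 was profiled by chromatin immunoprecipitation and sequencing. Per the submitters' processing notes, Bowtie 1.0.0, deepTools and build mm9 were used; the sources used here do not name the peak caller, its threshold, an input correction or any pooling of replicates. Each deposited list gives position, width in bp and a running name per peak, with no height or p-value. The depth is therefore unknown. BED starts are printed 1-based, and width is end minus BED start. Peaks of different lists were partners when overlapping by at least 1 bp, and covered length is the union of whole peaks overlapping a window. Named genes were the 8 members and their protein-coding neighbours, by name only: the gene table is GRCm38.p6, no position was carried to mm9, and whether peaks lie in exons or introns, and other genes of these networks, were not analysed here. The members, windows and lists were chosen with earlier results of these data known, and no test was made between the groups. Where a share is given with an interval, it is the exact (Clopper-Pearson) 95% interval. Alternatives changed the windows, overlap, merging and peaks used. Python 3.11.15, pandas 2.3.3, scipy 1.17.1 and matplotlib 3.10.9 were used, and the overlap code was tested on simulated data against bedtools 2.31.1.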

Additional observations from a re-analysis of the deposited data

How the results depend on the processing

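No paired analysis was possible because only 1 list stands for the 2 samples of a group, which also leaves no replicate to omit. Moving the window edges out by 50 kb gave 6 H3.1K27M and 8 H3.3K27M peaks in place of 4 and 8, and counting only peaks wholly inside gave 3 and 6. Clipping peaks to the windows gave 55.6 kb with H3.1K27M and 141.8 kb with H3.3K27M, and merging peaks under 5 kb apart gave 163.2 kb with H3.3K27M, through the gap at Dlx5 and Dlx6. Counting partners outside the windows, a setting added after seeing the data, gave 71.2 kb with H3.1K27M and left 161.8 kb with H3.3K27M. A reciprocal overlap of 50% raised the H3.3K27M peaks of the loci without a partner from 3 to 4, the added one being the last En2 peak, and the shares over all peaks to 33.9% (H3.1K27M) and 41.6% (H3.3K27M). These shares were 7.52% and 15.1% for peaks of at least the median width, and, in a setting chosen after seeing the data, 1.49% and 3.96% for peaks at least as wide as the wider Dlx5 and Dlx6 peak. Merging peaks under 5 kb apart could not alter the 5 width ratios at En2 and at Dlx3 and Dlx4, because the smallest gap there was 10.2 kb. The unknown depth limits every statement that a peak is absent from a list.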
